A study of Mus musculus with 12 samples.

Results

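The genes described here carry out glucose transport, glycolysis, lactate and pyruvate handling, gluconeogenesis and glycogen turnover. They were taken by gene symbol from a list of 40 symbols, which matched 41 of the 55401 gene records, because Aldoa has 2 records. The rule used symbols and no threshold on expression, but the list was drawn up with earlier results of these data known. They were sorted by role into 2 glucose transporters, 11 records of upper glycolysis, 8 of lower glycolysis, 4 of lactate handling, 5 of pyruvate entry, 4 of gluconeogenesis and 7 of glycogen turnover. RNA-seq had been performed with adult neural stem/progenitor cells (aNSPCs), isolated from the forebrains of C57BL/6 mice of 8 to 10 weeks and grown in medium with EGF and FGF-2. Cells kept under proliferating conditions were left as control (Ctrl) or exposed to 1 mM NAD+. Under differentiation conditions, Ctrl and NAD+ cells both received 1 µM retinoic acid and 5 µM forskolin, and the NAD+ group received NAD+ as well. Each of the 4 groups had 3 samples, which the study calls biological repeats, with no word on whether cultures or mice were shared. The retinoic acid and forskolin doses are those of the study's differentiation assay, which lasted 48 h, and the time is not stated again for the sequenced cells. The sex of the mice is not given in the sources used here.

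Glycolysis splits glucose into pyruvate through a chain of enzymes and reduces NAD+ to NADH at the Gapdh step, and lactate dehydrogenase returns NADH to NAD+ when pyruvate is turned into lactate. Gluconeogenesis runs the chain backwards past its irreversible steps, and glycogen stores glucose units that phosphorylase releases again. Stem and progenitor cells of the adult brain are known for high glycolytic gene expression, which falls as they differentiate, while astrocytes keep glycogen and export lactate.

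All values are FPKM, a read count scaled by the length of the gene and by the reads of the sample, so levels of different genes can be set side by side. A log2 fold change is the limma estimate on log2(FPKM + 0.1), and adjusted p-values are by the Benjamini-Hochberg method over all tested genes. Of the 41 records, 40 passed the filter on low values in each condition. Fbp2, the muscle fructose bisphosphatase, did not, with at most 0.14 FPKM in any sample. The samples summed to between 308828 and 363330 FPKM. Proliferating Ctrl replicate 1 stood apart, with the highest sum and a mean correlation of 0.959 with its group against 0.967 and 0.968 for the other two. Neural stem cell markers were present in every group, and the summed FPKM of 7 of them was 2590 to 2840 in proliferating Ctrl and 1580 to 2100 with NAD+ (none of the 7 passed the adjusted limma test). Fabp7 made most of that sum and of its difference, at 62.5% of Ctrl, while Nes was at 119%, Sox2 at 96.1% and Vim at 97.5%. Astrocyte markers summed to 1320 to 1410 in differentiation Ctrl and 1730 to 1860 with NAD+. Gfap, at 164% of Ctrl, made most of that difference. Slc1a3 was at 129%, Slc1a2 at 120% and S100b at 113%, while Aqp4 was at 80.1%, Gja1 at 72.8% and Aldh1l1 at 65.6%. The part of either marker list in the results was not tested. Neuron markers summed to no more than 35.5 in any sample, also under differentiation conditions. Microglial and endothelial markers summed to no more than 0.39 and 0.19. In these bulk samples, fewer cells of a type and less RNA per cell cannot be told apart.

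The sequences upstream of 4 genes are shown as examples, all of which hold a marked motif, and no result rests on them. Pygm passed the test under proliferating conditions, Slc16a1 passed it under differentiation conditions, and Pgk1 and Pgam1 are abundant enzymes of the chain. Hk1, Pcx and Aldoc also passed it under differentiation conditions and are not shown. Each run holds the 250 bases before the RefSeq start on GRCm38.p6, read 5′ to 3′ on the plus strand. For Pgam1, the RefSeq start directly follows the window at 41911870, while GENCODE M21 starts the gene at 41911923. Capitals mark ACGTG, a form of the core of hypoxia response elements, its reverse complement CACGT, and CACGTG, the E-box that Myc and the glucose-sensing factor ChREBP can bind. CACGTG contains the shorter letters on both strands.
Pygm, chr19:6384158-6384407: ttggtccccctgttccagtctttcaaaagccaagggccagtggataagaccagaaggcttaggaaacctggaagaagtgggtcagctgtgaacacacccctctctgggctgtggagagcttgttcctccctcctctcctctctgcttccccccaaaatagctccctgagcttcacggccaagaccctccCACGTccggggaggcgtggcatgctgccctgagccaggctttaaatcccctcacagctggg
Slc16a1, chr3:104638414-104638663: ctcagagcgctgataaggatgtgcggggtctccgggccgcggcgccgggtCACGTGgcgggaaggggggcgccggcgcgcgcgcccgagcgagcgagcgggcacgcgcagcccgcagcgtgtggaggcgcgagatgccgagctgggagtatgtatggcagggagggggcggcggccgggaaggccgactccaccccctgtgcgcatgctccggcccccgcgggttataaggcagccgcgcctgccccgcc
Pgk1, chrX:106186850-106187099: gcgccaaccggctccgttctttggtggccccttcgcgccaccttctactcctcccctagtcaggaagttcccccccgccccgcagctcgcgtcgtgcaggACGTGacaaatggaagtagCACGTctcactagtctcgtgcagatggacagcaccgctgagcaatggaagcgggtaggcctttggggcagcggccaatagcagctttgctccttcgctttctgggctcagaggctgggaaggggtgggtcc
Pgam1, chr19:41911621-41911870: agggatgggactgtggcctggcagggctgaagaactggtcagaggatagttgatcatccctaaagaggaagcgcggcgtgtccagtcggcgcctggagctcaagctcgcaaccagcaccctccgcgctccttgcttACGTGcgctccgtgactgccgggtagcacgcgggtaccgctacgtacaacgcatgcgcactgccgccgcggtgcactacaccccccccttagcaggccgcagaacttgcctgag

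Pygm and Pgam1 held the short motif in 1 place, Pgk1 in 2, and Slc16a1 held the E-box. Of the genes that passed but are not shown, Pcx had ACGTG in a window, and Hk1 and Aldoc did not. RefSeq promoter entries were found for 39 of the 40 symbols, all but Slc2a3, with 55 windows in all. ACGTG on either strand was in 23 of the 55 windows (41.8%), against 16.6% of 32851 windows of all genes. CACGTG was in 8 of the 55 (14.5%), against 6.02%. These windows were not matched for base composition. By symbol, 20 of the 39 (51.3%) had ACGTG in at least 1 window, and so did 12 of the 22 genes lower in every NAD+ sample under proliferating conditions, so the lower genes did not stand out among the members.

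Under proliferating conditions, most of these genes were lower with NAD+ (the plot of fold changes by role). The log2 fold change was below 0 for 32 of the 40 tested records, against 40.3% of all 18597 tested genes. Their median was -0.28, and the median of all tested genes was 0.07. In 22 records (55%) every NAD+ sample was below every Ctrl sample, against 8.59% of all tested genes, and an unadjusted limma p under 0.05 with a lower value was likewise found for 22, against 6.05%. A higher value with such a p was found for 1, against 9.35%. Only Eno2, the neuronal enolase, was higher in every NAD+ sample (0.58 to 0.91 FPKM in Ctrl and 1.02 to 1.51 with NAD+), against 15.5% of all tested genes. With 3 samples against 3, groups that do not overlap give an exact permutation p of 0.10, the smallest this design allows. After adjustment, 1 record passed, Pygm, against 0.145% of all tested genes in either direction and 0.0968% for lower values. The study's rule for a differentially expressed gene (DEG), an unadjusted p under 0.05 and more than a 2-fold ratio of mean FPKM, was met by 3 records, all lower (Pygm, Fbp1 and Eno3), against 1.41% of all genes for lower DEGs.

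**Figure D1:**
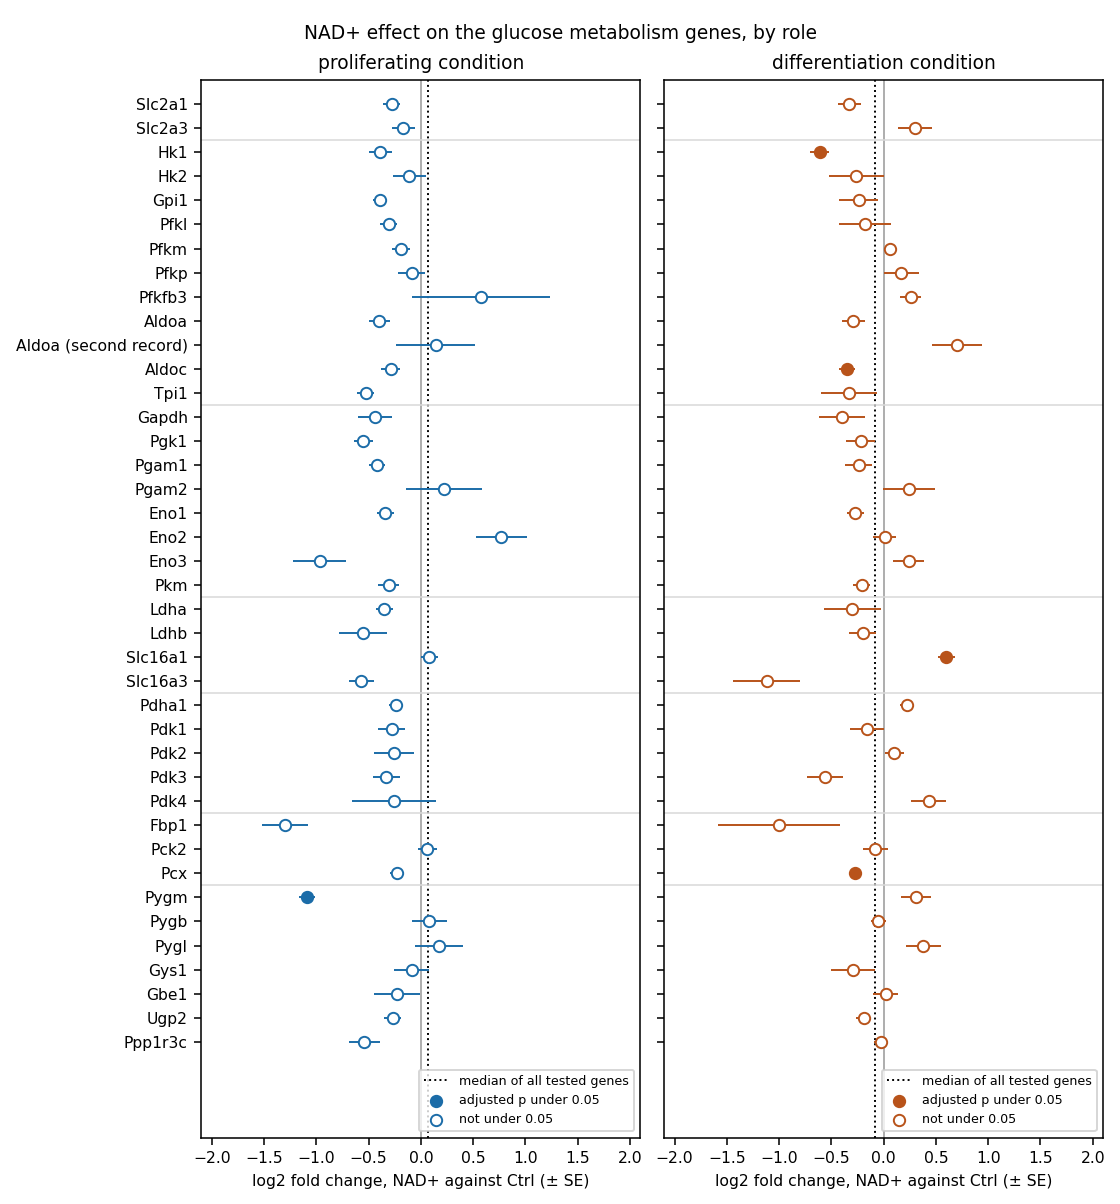
Limma log2 fold change of NAD+ against Ctrl (x axis, error bars ± standard error, 3 samples per group) for the 40 tested records (y axis, ordered by role from transport to glycogen), proliferating on the left and differentiation on the right. Filled points have an adjusted p under 0.05, Pygm on the left and Hk1, Aldoc, Slc16a1 and Pcx on the right, and the dotted line is the median of all tested genes.

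Pygm encodes the muscle form of glycogen phosphorylase, which releases glucose units from glycogen. The gene (ENSMUSG00000032648) lies on the plus strand of chromosome 19 from 6384399 to 6398459 (mm10, GENCODE M21). It had 26.09, 24.71 and 25.62 FPKM in proliferating Ctrl and 12.77, 11.34 and 11.61 with NAD+. The NAD+ samples stood far below the Ctrl samples, with a mean of 46.7% of Ctrl. Pygm fell by 1.09 on the log2 scale (standard error 0.08, limma adjusted p = 0.0266). Leaving out single samples kept the log2 fold change between -1.14 and -1.06, but the limma adjusted p was 0.0866 without Ctrl replicate 2, 0.102 without Ctrl replicate 3, and 0.103, 0.142 and 0.123 without NAD+ replicates 1, 2 and 3. It was 0.0795 without the variance trend. Markers of skeletal muscle, where Pygm is best known, summed to no more than 0.64 FPKM in any proliferating sample.

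The other phosphorylases gave overlapping groups. Pygb, the brain form and the most abundant of the family, had 78.66 to 107.01 FPKM in Ctrl and 83.04 to 115.36 with NAD+, and Pygl, the liver form, had at most 0.38 FPKM. Pygm made up 19.6, 22.7 and 24.5% of the summed phosphorylase FPKM in proliferating Ctrl and 9.94, 12 and 11.8% with NAD+. A scaling factor of a sample cancels in such a share. Of the other glycogen genes, Ppp1r3c, a subunit that targets protein phosphatase to glycogen, was at 68.9% of Ctrl (log2 fold change -0.54, limma adjusted p = 0.177). Ugp2, which makes UDP-glucose, was at 83.3% of Ctrl. In both, every NAD+ sample was below every Ctrl sample, and the groups overlapped for Gys1, glycogen synthase, and Gbe1, the branching enzyme.

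Along the chain from glucose phosphate to lactate, the NAD+ samples lay below all Ctrl samples for an enzyme of every step (the plot of the enzyme chain). Values of Gapdh, Pgam1 and Eno1 are uncertain, as described below. The log2 fold changes were -0.39 for Gpi1, -0.31 for Pfkl, -0.40 for Aldoa, -0.53 for Tpi1, -0.44 for Gapdh, -0.55 for Pgk1, -0.42 for Pgam1, -0.34 for Eno1, -0.31 for Pkm and -0.35 for Ldha. None of these 10 passed the adjusted test, and the limma adjusted p came closest to it for Tpi1 (0.0775), Pgk1 (0.0784) and Gpi1 (0.0868). Pgk1, which makes the first ATP of the pathway, had 409.8 to 462.01 FPKM in Ctrl and 289.73 to 303.21 with NAD+, or 68.3% of Ctrl. Pkm, the pyruvate kinase of most tissues, had 314.27 to 369.14 and 251.94 to 294.05 FPKM. Hk1, the hexokinase of the brain, and Aldoc, the brain aldolase, also did not overlap, at 76.4% and 81.7% of Ctrl. Overlap was seen for Pfkm, the most abundant phosphofructokinase gene here, for the isoforms Hk2, Pfkp and Pgam2 and for Pfkfb3, which makes an activator of phosphofructokinase. Pfkfb3 had 1.05 FPKM in Ctrl replicate 1 and 3.23 in NAD+ replicate 1, against 5.67 to 6.42 in the other 4 proliferating samples.

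**Figure D2:**
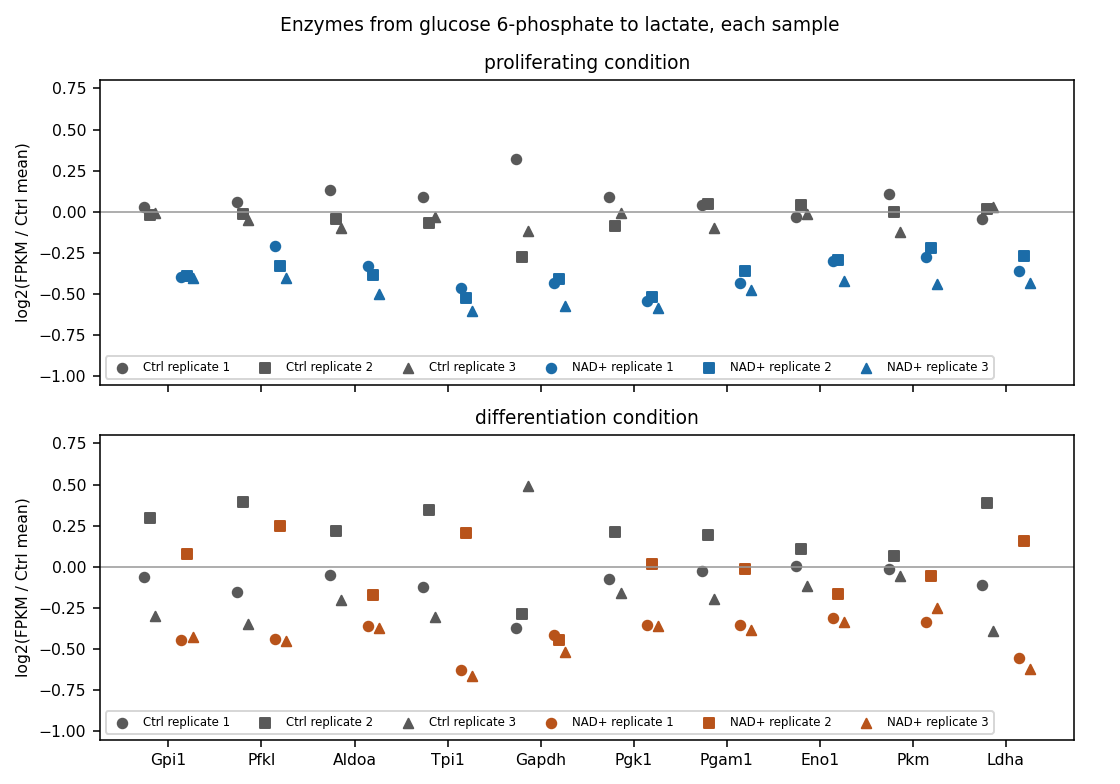
Each sample's log2 ratio of FPKM to the mean of the Ctrl samples of its condition (y axis) for 10 enzymes from Gpi1 to Ldha (x axis), with Ctrl in grey, NAD+ in colour and a marker shape for each replicate number. In the upper panel (proliferating) the NAD+ samples lie below the Ctrl samples for every enzyme, and in the lower panel (differentiation) replicate 2 lies highest in both groups for all enzymes but Gapdh, and only Gapdh and Eno1 do not overlap.

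At the ends of the chain, the NAD+ samples of the proliferating condition were also below Ctrl for some genes, while other genes overlapped. Slc2a1, the glucose transporter of many cell types, was at 82.2% of Ctrl with no overlap, and Slc2a3, the neuronal transporter, overlapped. Slc16a3, the monocarboxylate transporter that exports lactate from glycolytic cells, had 3.54, 3.93 and 3.56 FPKM in Ctrl and 2.63, 2.44 and 2.27 with NAD+ (log2 fold change -0.57, standard error 0.12, limma adjusted p = 0.126). Slc16a1, which carries lactate in either direction, had 18.02, 17.84 and 17.81 FPKM and 17.89, 19.84 and 18.93. Its groups overlapped, so the lower values did not extend to this transporter. Ldhb, the lactate dehydrogenase subunit of oxidative tissues, had 202.84 to 316.8 FPKM in Ctrl and 137.23 to 212.58 with NAD+ and overlapped, with replicate 1 highest in both groups. For pyruvate entry, Pdha1, a subunit of pyruvate dehydrogenase, was at 84.5% and its kinase Pdk3 at 79.0% of Ctrl without overlap, while Pdk1, Pdk2 and Pdk4 overlapped.

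Fbp1 and Eno3 are the members the study named. Fbp1, the fructose bisphosphatase of gluconeogenesis, had 3.43, 1.92 and 2.67 FPKM in proliferating Ctrl and 1.00, 0.93 and 1.07 with NAD+. Its Ctrl samples were more spread than its NAD+ samples, and the groups did not overlap (log2 fold change -1.30, limma adjusted p = 0.0914). Eno3, the muscle enolase, had 2.49, 1.68 and 1.5 FPKM in Ctrl and 0.75, 0.84 and 1.14 with NAD+ (log2 fold change -0.97, limma adjusted p = 0.165). It supplied 0.739% ± 0.22 (SD, n = 3) of the summed enolase FPKM in proliferating Ctrl and 0.452% ± 0.12 with NAD+, a share of Eno1, Eno2 and Eno3 that leaves out the copy Eno1b. Pcx, pyruvate carboxylase, had 20.02, 20.75 and 20.78 FPKM in Ctrl and 17.33, 17.05 and 18.10 with NAD+, without overlap (log2 fold change -0.23, limma adjusted p = 0.227). Pck2, the mitochondrial phosphoenolpyruvate carboxykinase, had 4.94 to 5.03 FPKM and 4.99 to 5.49 and overlapped.

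Under differentiation conditions, 4 records passed the test, against 6.92% of all 19611 tested genes. Slc16a1 was higher, against 2.27% for higher values, and Hk1, Pcx and Aldoc were lower, against 4.65%. The log2 fold change was below 0 for 25 of 40 records, against 61.8% of all tested genes, and the median was -0.18 beside -0.08 for all tested genes. Every NAD+ sample was below every Ctrl sample for 8 records (20%), against 21.1% of all tested genes. The opposite was found for 5 (Slc16a1, Pdha1, Pfkfb3, Pygl and the second Aldoa record), against 9.68%. With median-ratio scaling these counts turned around, to 5 lower, against 14.3% of all tested genes, and 8 higher, against 14.8%. An unadjusted limma p under 0.05 was found with a lower value for 10 records, against 16.7%, and with a higher value for 5, against 7.5%. The share of members lower without overlap lies near that of all genes. A single record, Slc16a3, met the DEG rule, against 2.69% for lower DEGs.

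Slc16a1 (ENSMUSG00000032902) lies on the plus strand of chromosome 3 from 104638668 to 104658462. It had 46.85, 47.32 and 41.66 FPKM in differentiation Ctrl and 72.93, 70.13 and 62.46 with NAD+. All NAD+ samples were above all Ctrl samples, with a mean of 151% of Ctrl. It rose by 0.60 on the log2 scale (standard error 0.08, limma adjusted p = 0.0127), and the limma adjusted p was 0.0501 without Ctrl replicate 1. Slc16a3 stood the other way, with 0.53, 0.78 and 0.37 FPKM in Ctrl and 0.16, 0.29 and 0.15 with NAD+, or 35.7% of Ctrl. The groups did not overlap, but its log2 fold change of -1.12 (standard error 0.32) did not pass the adjusted test (limma adjusted p = 0.0954). Slc16a1 made up 98.4 to 99.1% of the summed FPKM of both transporters in Ctrl and 99.6 to 99.8% with NAD+.

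Hk1 commits glucose to metabolism by phosphorylating it. The gene (ENSMUSG00000037012) lies on the minus strand of chromosome 10 from 62268855 to 62379908. It had 17.71, 21.78 and 20.52 FPKM in differentiation Ctrl and 13.15, 13.54 and 12.47 with NAD+. The groups were apart, with a mean of 65.3% of Ctrl, and Hk1 fell by 0.61 on the log2 scale (standard error 0.09, limma adjusted p = 0.0147). The limma adjusted p was 0.0596 without Ctrl replicate 3 and 0.0532 without NAD+ replicate 3.

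Pcx makes oxaloacetate from pyruvate, a reaction that astrocytes carry out in brain. It had 25.17, 24.79 and 25.39 FPKM in differentiation Ctrl and 21.73, 19.41 and 21.38 with NAD+, and it fell by 0.27 (standard error 0.06, limma adjusted p = 0.0453). Aldoc, also a gene of astrocytes, had 323.15, 308.07 and 367.92 FPKM in Ctrl and 248.54, 271.41 and 261.59 with NAD+, and it fell by 0.35 (standard error 0.08, limma adjusted p = 0.0475). Neither gene overlapped between the groups. Both calls were close to the threshold and were lost in every fit that left out a sample, with limma adjusted p-values of 0.0716 to 0.138 for Pcx and 0.0711 to 0.124 for Aldoc, with 0.141 and 0.121 under median-ratio scaling and 0.129 and 0.119 without the variance trend. Of the 7 astrocyte markers, 3 were higher (Gfap, Slc1a2 and Slc1a3) and 1 lower (Aldh1l1) after adjustment in the same comparison, and their part in these values was not tested.

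Most enzymes of the chain overlapped between the groups under differentiation conditions, with Gapdh and Eno1 as the exceptions among the 10 of the enzyme chain. Values of both are uncertain, as described below. Gapdh was barely apart, at no less than 8.63 FPKM in Ctrl and no more than 8.4 with NAD+. The log2 fold changes of the 10 lay between -0.40 (Gapdh) and -0.18 (Pfkl). The samples varied in step: replicate 2 was the highest of its group in both Ctrl and NAD+ for 21 of the 41 records (51.2%), against 12.6% of all tested genes. Tpi1 shows this, with 24.87, 34.33 and 21.85 FPKM in Ctrl and 17.53, 31.18 and 17.07 with NAD+. Ldha had 28.64, 40.44 and 23.57 FPKM in Ctrl and 21.03, 34.38 and 20.05 with NAD+, in the same order. Under proliferating conditions, replicate 1 was highest in both groups for 12 of the 41 records (29.3%), against 12.4% of all tested genes. Replicate 2 was so for 9 (22%), against 11.6%, and replicate 3 for 1 (2.44%), against 10.5%. The sources do not say whether samples of the same number shared a culture, and the reason for the order was not tested. Without differentiation NAD+ replicate 2, 18 records were lower in every NAD+ sample in place of 8. Groups with fewer samples overlap less often for any gene. The share of all tested genes was not computed for that fit, so the 18 cannot be read as a result about the members. Without differentiation Ctrl replicate 2 the median log2 fold change of the members was -0.04.

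The members of highest mean FPKM over all 12 samples, beside Aldoc, were Pgk1, Pkm, Ldhb and Pygb. Pgk1 had 89.31 to 115.54 FPKM in differentiation Ctrl and 77.89 to 100.89 with NAD+, and Pkm had 78.85 to 85.83 and 64.99 to 78.87. Ldhb had 127.41 to 179.29 FPKM in Ctrl and 124.33 to 142.96 with NAD+, and Pygb had 244.57 to 259.51 and 223.97 to 265.5. All 4 overlapped between the groups.

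Values of 8 records were below all Ctrl samples in both conditions: Hk1, Aldoc, Gapdh, Eno1, Slc16a3, Pdk3, Pcx and Ugp2. That is 8 of 40, against 3.94% of the 17558 genes tested in both conditions, and the 8 include Gapdh and Eno1, whose values are uncertain. The 8 are all of the members lower without overlap under differentiation conditions, where that share was near that of all genes (20% against 21.1%). Under proliferating conditions it was 55% against 8.59%. With median-ratio scaling only 5 members were lower without overlap under differentiation conditions. Fold changes of the 8 were of like size for Pcx (-0.23 and -0.27), Aldoc (-0.29 and -0.35) and Eno1 (-0.34 and -0.27), each given for proliferating and then differentiation conditions. Pdha1 was the only record that lay apart in opposite directions, at 84.5% of Ctrl under proliferating and 117% under differentiation conditions, against 0.336% of the genes tested in both. It was picked out after its values were seen.

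**Figure D3:**
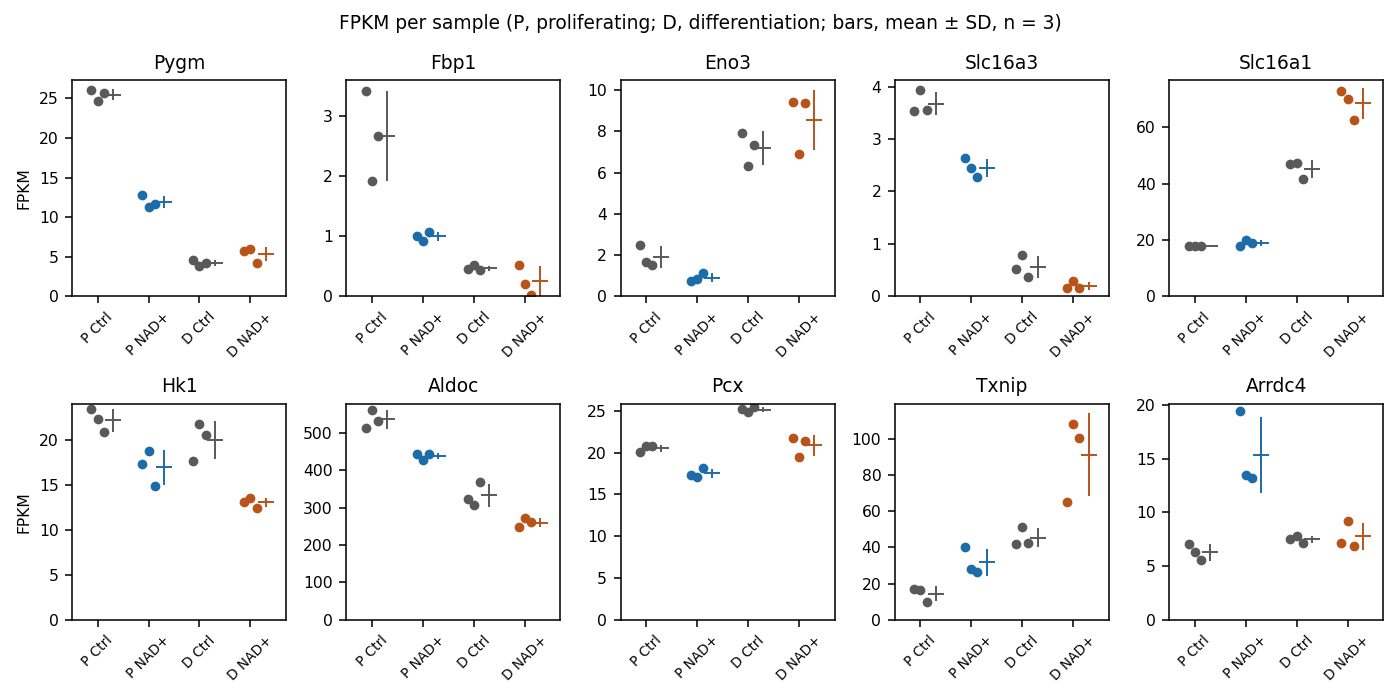
FPKM (y axis, linear from 0) of each sample in the 4 groups (x axis, P for proliferating and D for differentiation) for 8 members and for Txnip and Arrdc4, with the mean and SD of 3 samples beside the points. Pygm is lower with NAD+ in P and at 3.88 to 5.96 FPKM in all D samples, and Slc16a1 is higher with NAD+ in D.

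The effect of NAD+ on Pygm differed between the conditions. Under differentiation conditions Pygm had 4.59, 3.88 and 4.19 FPKM in Ctrl and 5.72, 5.96 and 4.27 with NAD+, which overlapped (log2 fold change 0.31, standard error 0.14). The differentiation effect minus the proliferating effect was 1.41 on the log2 scale (standard error 0.17, limma adjusted p = 0.0105). Pygm was the only record of 40 to pass this test, against 0.467% of all 19498 genes tested for it, and it passed in each fit that left out a sample (limma adjusted p = 0.0038 to 0.0438). Slc16a1 (0.52, limma adjusted p = 0.0666), Pdha1 (0.47, 0.0627) and Eno3 (1.20, 0.105) came next in size or p without passing. Eno3 itself had 7.93, 6.31 and 7.34 FPKM in differentiation Ctrl and 9.41, 6.88 and 9.39 with NAD+, and Fbp1 had 0.45, 0.52 and 0.44 and then 0.52, 0.21 and 0.02. Both overlapped, so neither pattern of the proliferating condition was seen without overlap in the other. Whether the effect on Fbp1 differed was not shown (difference 0.30, limma adjusted p = 0.857).

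The levels of the members in the 2 culture conditions are set side by side without a test, because the conditions came in separate tables and no source says whether they were normalized together. In Ctrl, 24 of 40 records were lower in every differentiation sample than in every proliferating sample, against 33.9% of all genes, and 8 were higher, against 27.9%. The median log2 difference was -0.69, beside -0.06 for all genes. With median-ratio scaling of all 12 samples the counts were 23 and 8 and the median -0.57, beside 0.05 for all genes. With quantile normalization the counts were 22 and 7 and the median -0.39, beside -0.02 for all genes. In the NAD+ samples, 23 records were lower, against 41.7% of all genes, and 10 were higher, against 24.6%. The median log2 difference there was -0.65, beside -0.2 for all genes. Median-ratio scaling gave 20 lower, 13 higher and a median of -0.37 in the NAD+ samples, beside 0.05 for all genes. Quantile normalization gave 20, 13 and -0.27, beside -0.02. Shares of all genes were not computed for the rescaled counts in either group.

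**Figure D4:**
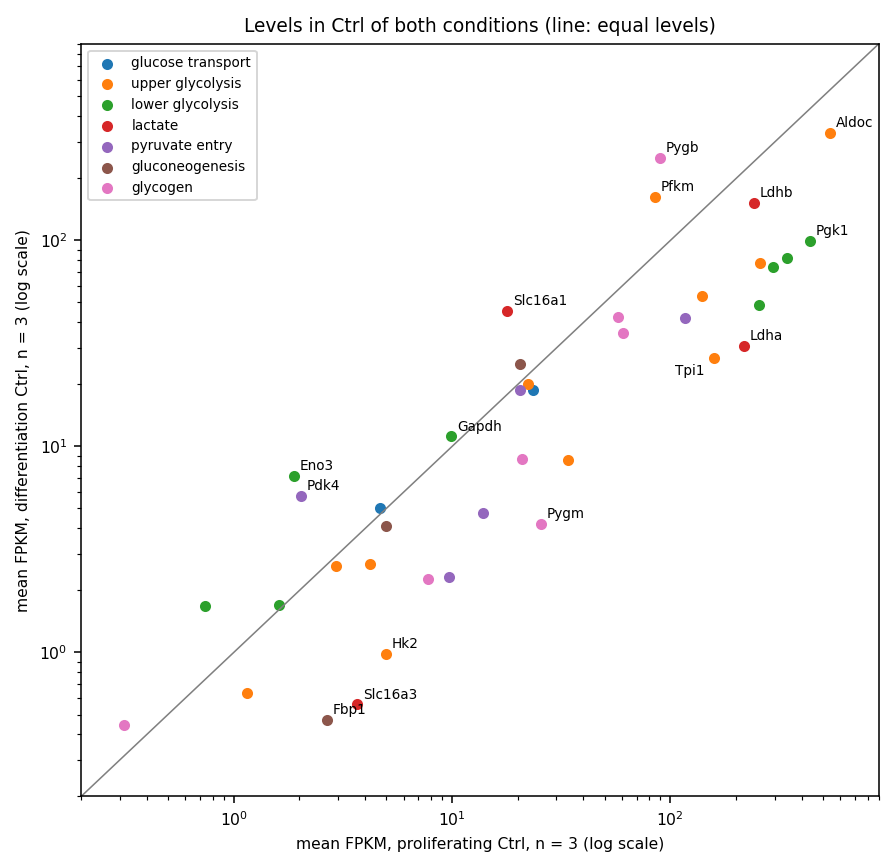
Mean FPKM of the 40 records in proliferating Ctrl (x axis) and differentiation Ctrl (y axis), both on log scales and each the mean of 3 samples, coloured by role with the line of equal levels. Most points lie below the line, Ldha, Tpi1, Pygm and Slc16a3 far below it, and Pygb, Pfkm, Slc16a1, Eno3 and Pdk4 lie above.

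The lower levels in differentiation Ctrl ran along the chain. Ldha had 217 ± 5.63 FPKM in proliferating and 30.9 ± 8.66 in differentiation Ctrl (SD, n = 3), 7.02 times less, and Tpi1 was 5.88 times, Eno1 5.23 times, Pgk1 4.36 times, Pkm 4.17 times and Pgam1 4 times lower. Pygm was 6.04 times, Slc16a3 6.57 times and Fbp1 5.69 times lower. Aldoc, with the highest mean of all members, was 1.61 times lower and Ldhb 1.59 times lower. Levels went the other way for Eno3 (3.81 times higher), Pdk4 (2.82 times), a kinase that restrains pyruvate dehydrogenase, Pygb (2.80 times), Slc16a1 (2.53 times), Eno2 (2.29 times) and Pfkm (1.92 times). Dividing cell markers summed to 202 to 240 FPKM in proliferating Ctrl and 20.6 to 21.8 in differentiation Ctrl, and their part in these levels was not tested.

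Isoform shares within a sample do not depend on the scale of a table, so they can be compared across the conditions as descriptions. They were computed after the levels had been seen. Ldhb was 47.9 to 60.1% of lactate dehydrogenase FPKM in proliferating Ctrl and 75.9 to 88.4% in differentiation Ctrl. Pfkm was 68.7 to 70.7% and 92.0 to 94.7% of phosphofructokinase, and Aldoc was 64.7 to 69.5% and 77.3 to 84.5% of the 2 aldolases. Pygb was 75.2 to 80.2% and 98.0 to 98.4% of the phosphorylases. Each family thus had a larger share of the form in question in all 3 differentiation Ctrl samples, and the Pygm share there was 1.47 to 1.8%. With NAD+, the shares of the phosphorylases and of the monocarboxylate transporters did not overlap with Ctrl in either condition. The Pygm share was lower with NAD+ under proliferating conditions but higher under differentiation conditions, at 1.87 to 2.34% with NAD+. The Pygb share moved the opposite way in each condition. The Slc16a1 share was higher with NAD+ in both conditions. Slc2a1 did not overlap under differentiation conditions, at 77.9 to 80.6% of Slc2a1 and Slc2a3 in Ctrl and 68.9 to 73.9% with NAD+, and nor did Pdk4, at 17.3 to 19% of the 4 Pdk genes in Ctrl and 19.9 to 25.9% with NAD+. The other shares computed overlapped.

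**Figure D5:**
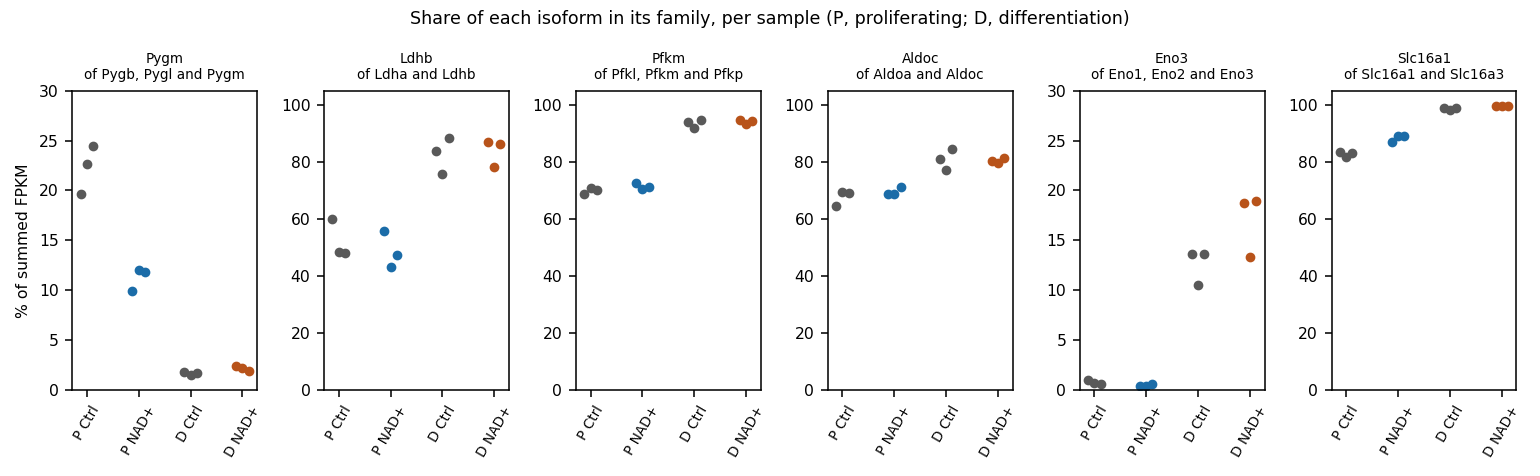
Share of an isoform in the summed FPKM of its family (y axis, %; the axes end at 30% for Pygm and Eno3) in each of the 3 samples of the 4 groups (x axis, P for proliferating and D for differentiation). The Pygm share is 19.6 to 24.5% in P Ctrl and 9.94 to 12% in P NAD+. It is 1.47 to 1.8% in D Ctrl and 1.87 to 2.34% in D NAD+. The shares of Ldhb, Pfkm and Aldoc are higher in D than in P.

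Other genes of the same and neighbouring pathways were read from a list of 72 genes. It holds 7 genes of the pentose phosphate pathway and 12 glucose-responsive and hypoxia regulators, Txnip and Arrdc4 among them. Of the 72, 63 were tested under proliferating and 60 under differentiation conditions. Under proliferating conditions 32 of the 63 were lower, against 40.3% of all tested genes, and 31 higher. Of the 12 regulators, 4 were lower and 8 higher. None of the 63 passed the adjusted limma test there. An unadjusted p under 0.05 was found with a higher value for 6, against 9.35% of all tested genes, and with a lower value for 7, against 6.05%. Every NAD+ sample was below every Ctrl sample for 9 (14.3%), against 8.59% of all tested genes, and above for 6, against 15.5%. The median log2 fold change of the 63 was -0.01, beside 0.07 for all tested genes. Of these genes 4 met the DEG rule, all higher, against 1.6% of all tested genes for higher DEGs. Txnip, which restrains glucose uptake and is induced by glucose, had 17.17, 16.32 and 9.53 FPKM in Ctrl and 40.43, 27.95 and 26.64 with NAD+ (log2 fold change 1.16, limma adjusted p = 0.137). Arrdc4, a related arrestin, had 7.07, 6.27 and 5.52 FPKM and 19.42, 13.49 and 13.15 (log2 fold change 1.26, limma adjusted p = 0.0600). In both genes all NAD+ samples were above all Ctrl samples. Hkdc1 and Slc16a8, the remaining pair, had at most 0.53 FPKM under proliferating conditions.

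Under differentiation conditions, 5 of the 60 passed the test, against 6.92% of all tested genes. The count was 0 to 2 when single samples were left out and 0 without the variance trend. Txnip rose by 0.98 on the log2 scale (standard error 0.20, limma adjusted p = 0.0366), from 42.06, 51.28 and 42.55 FPKM to 65.13, 108.14 and 100.71. The limma adjusted p of Txnip was 0.0154 without NAD+ replicate 1 and 0.0791 to 0.123 without any other sample. Arrdc4 overlapped between the groups there, with 7.16 to 7.79 FPKM in Ctrl and 6.9 to 9.23 with NAD+. The difference of its effects between the conditions was -1.22 (limma adjusted p = 0.0502). Phkb and Phka1, subunits of the phosphorylase kinase that activates glycogen phosphorylase, fell by 0.42 and 0.28 (limma adjusted p = 0.0147 and 0.0333). Phkb had 25.69, 26.23 and 24.61 FPKM in Ctrl and 18.02, 20.22 and 18.83 with NAD+. In the pentose phosphate pathway, Tkt, transketolase, fell by 0.27 (limma adjusted p = 0.0322), while Taldo1, transaldolase, rose by 0.29 (limma adjusted p = 0.0350). Txnip and Ppp1r3g met the DEG rule, both higher, against 1.36% of all tested genes. Ppp1r3g, a glycogen-targeting subunit, had 0.03 to 0.17 FPKM in Ctrl and 0.36 to 0.45 with NAD+ (limma adjusted p = 0.0582).

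Some members share sequence with other records, and only uniquely mapped reads had been kept. How many reads the copies took or lost was not tested. Gapdh, a gene of very high expression in most cells, was listed at only 6.68 to 15.73 FPKM, while its processed pseudogene Gapdh-ps15 on chromosome Y was listed at 10.63 to 13.14 FPKM in proliferating Ctrl. Mean FPKM in proliferating Ctrl was 254 for Eno1 beside 62.2 for its copy Eno1b, and 296 for Pgam1 beside 63.6 for the pseudogene Pgam1-ps2. Values of Gapdh, Eno1 and Pgam1 are uncertain. The second Aldoa record (ENSMUSG00000114515) lies just upstream of the main one (ENSMUSG00000030695) on the minus strand of chromosome 7 and had at most 1.71 FPKM, against 60.1 to 279.86 for the main record.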

How the data were processed

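The authors aligned reads with Hisat2 v2.0.5 (genome build mm10), kept uniquely mapped reads, counted them with FeatureCounts v2.0.1 and deposited FPKM values for 12 samples in a table for each condition. Samples were grouped by their titles, since the labels' treatment field reads untreated for all 12. Fold changes, p-values and q-values of the authors stand beside the FPKM values in the tables and were not used. FPKM values were rounded to 0.01 and low values did not come out as whole reads, so depth is unknown and no counting error can be given. Per condition, genes whose FPKM averaged 0.1 or more were fitted with limma 3.58.1 in R 4.3.3 on log2(FPKM + 0.1), NAD+ against Ctrl, with a variance trend, two-sided, adjusted by the Benjamini-Hochberg method. For the DEG ratio, FPKM of 0 was raised to 0.0001. The difference between conditions was a contrast in a fit of all 12 samples. Exact permutation tests were two-sided. The fit was tested on simulated data with changes of 2-fold or more. Smaller changes, the size seen for most members, were not simulated. Gene positions came from GENCODE M21 and upstream windows from RefSeq. Members with an adjusted p under 0.05 in any of the 3 fits, DEGs, Fbp1 and Eno3 were given with all values, the 5 most abundant members by level, and other pathway genes if they passed the test or were DEGs; further genes were named after their values were seen. The members and lists were chosen with earlier results of these data known. Alternatives were other added values, filters and scalings, a replicate block, no variance trend, and leaving out each sample.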

Additional observations from a re-analysis of the deposited data

Results flagged for a closer look

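The NAD+ effect on Pygm differed between the culture conditions by 1.41 on the log2 scale (limma interaction contrast, Benjamini-Hochberg adjusted p = 0.0105). Proliferating NAD+ samples were all below Ctrl (3 of 3), and under differentiation conditions all 3 NAD+ samples were at or above 4.27 FPKM, within or above the Ctrl range of 3.88 to 4.59. No group had enough samples for a check of single outlying samples.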

How the results depend on the processing

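The median of the members and the fold change of each named gene that was recomputed kept their signs in every alternative. Under proliferating conditions, the count of members past the adjusted test, 1 (Pygm), was 0 with the replicate block (Pygm limma adjusted p = 0.124), 0 without the variance trend and 0 without both replicate 1 samples (chosen after seeing the data), and 0 to 1 when single samples were left out. Under differentiation conditions it was 4, and 2 without the filter, 2 with the replicate block, 2 without the trend and 1 to 3 without single samples. DEGs among the members under differentiation conditions numbered 1, and 0 at a mean FPKM of at least 1 and 1 to 2 without single samples. The proliferating median of -0.28 was -0.35 with median-ratio scaling, where the median of all genes was 0.01. The differentiation median was -0.23 to -0.04 without single samples. Members lower in every NAD+ sample under differentiation conditions numbered 8 beside 5 that were higher, but 5 beside 8 with median-ratio scaling, and 9 to 18 without single samples. The count of 22 under proliferating conditions ranged from 22 to 32 over all alternatives. Groups with fewer samples overlap less often for any gene, and shares of all tested genes were not computed for fits that left out samples. Members whose effect differed between conditions numbered 1, and 2 with 1 added before log2, 3 with median-ratio scaling and 2 with quantile normalization. Other pathway genes past the test numbered 0 and 5 in the 2 conditions, in that order, and for the first 1 at a mean FPKM of at least 1, and for the second 3 without the filter, 3 with median-ratio scaling, 3 with the replicate block, 0 without the trend and 0 to 2 without single samples. Causes were not tested, beyond the smaller number of samples where samples were left out. The replicate numbers were not taken to pair the samples: after the group means were removed, samples of the same number correlated at 0.111, 0.0215 and 0.0529 under proliferating and 0.041, 0.0432 and 0.0257 under differentiation conditions. Every differentiation sample correlated best with its own number, which is a hint from the data and not the design, and under proliferating conditions Ctrl replicate 3 correlated best with NAD+ replicate 2 (0.0734). Depth is unknown and limits what can be said of members under 1 FPKM.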
